A study of Mus musculus with 4 samples.

Results

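The interferon response genes described here are 37 mouse genes that interferons are known to induce or that carry the interferon signal. They were chosen by name, with earlier results of these data known. All 37 had at least 10 UMIs (molecules counted once each by their unique molecular identifier) over the annotated cells, out of 21332 genes that did so and 31781 genes listed in any file. They were followed in single-cell RNA libraries of mammary tissue from MMTV-PyMT mice, whose polyoma middle T antigen is driven by the mouse mammary tumor virus promoter, so that hyperplastic glands progress to tumors. The groups were PKA hyperplasia and WT hyperplasia (hyperplastic glands, 8 to 9 weeks of age), and PKA tumor and WT tumor (16 to 20 weeks in the sample labels, 22 weeks in the series design). PKA mice carried an activated protein kinase A, the kinase that answers to cyclic AMP, and WT mice the wild-type form. All 4 groups carried PyMT and none was treated. How the kinase was activated, in which cells, and how many mice gave each library are not stated in the labels.

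Each group was 1 library, so no test was possible. Every interval is an exact 95% interval of counting error only, and each comparison is between these libraries rather than between genotypes. The libraries held 2638 to 5181 annotated cells and 10648097 to 24499374 UMIs, with medians per cell of 2557 UMIs in PKA against 2637.5 in WT hyperplasia, and of 5890.5 in PKA against 4391 in WT tumor. Any pair of libraries shared 16 to 24 cell barcodes. Glands were also treated with trypsin and dispase whereas tumors were not, so stage and dissociation cannot be told apart; the cell sort before capture is not described. Levels are CPM, the UMIs of a gene per 1000000 UMIs of the library or class, and a gene past 1.5-fold is one with a log2 ratio of at least 0.585 in size.

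Type I interferons bind a receptor made of Ifnar1 and Ifnar2, and the kinases Jak1 and Tyk2 then pass on the signal. Stat2 and Irf9 take part in a complex that binds the interferon-stimulated response element (ISRE) in promoters, while interferon gamma acts through another element, the gamma-activated site (GAS). The induced genes encode sensors of viral RNA, enzymes and GTPases that block viral growth, and factors such as Irf7 and Usp18 that strengthen or restrain the response.

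The promoters show the element that many members share. A promoter window, from 250 bases before to 50 after the annotated start, was found in the RefSeq table (GRCm38.p6) for 29 of the 37 members. The core of the ISRE, GAAA followed by any 2 bases and then GAAA, lay on either strand in 15 of these 29 genes (51.7%), against 3.99% of 27025 genes with a window, or 3.44% of all 32851 windows. The GAS letters, TTC followed by any 3 bases and then GAA, lay in 7 of the 29 (24.1%), against 9.55% of genes. A match describes the letters alone. Irf7 had neither motif in its window, and Irf1 had the GAS letters but not the ISRE letters. The following stretches, 5′ to 3′ in the direction of the gene, show the element in 8 members that the results return to, with the ISRE letters in capitals on whichever strand they lie (a match on the other strand reads TTTC, 2 bases, TTTC).
Isg15, chr4:156200855-156200904, minus strand: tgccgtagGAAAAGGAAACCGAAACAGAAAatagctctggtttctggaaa
Ifit1, chr19:34640784-34640833, plus strand: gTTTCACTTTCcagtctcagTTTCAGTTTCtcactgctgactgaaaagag
Ifit3, chr19:34583387-34583436, plus strand: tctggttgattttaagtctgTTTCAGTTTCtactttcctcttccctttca
Ifit3b, chr19:34607783-34607832, plus strand: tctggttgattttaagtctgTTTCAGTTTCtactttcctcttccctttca
Rsad2, chr12:26456543-26456592, minus strand: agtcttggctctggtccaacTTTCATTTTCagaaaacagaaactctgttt
Bst2, chr8:71537567-71537616, minus strand: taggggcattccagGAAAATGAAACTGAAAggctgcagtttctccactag
Gbp2, chr3:142620584-142620633, plus strand: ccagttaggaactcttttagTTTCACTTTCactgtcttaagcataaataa
Igtp, chr11:58199502-58199551, plus strand: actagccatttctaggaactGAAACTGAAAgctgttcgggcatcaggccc

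The stretch of Isg15 held 3 overlapping matches in a row and that of Bst2 held 2. The stretches of Ifit3 and Ifit3b were the same in all 50 bases. These neighbours on chromosome 19 also shared transcript sequence: of all 98-base stretches (the length of the cDNA read) in Ifit3 transcripts, 32.3% also occurred in Ifit3b, so their counts are uncertain as separate values. The same holds for Oas1a, which shared 41.4% of its stretches with Oas1g, and to a lesser degree for Herc6 (10.4%) and Rtp4 (9.37%). Parp9 and Dtx3l overlap on opposite strands over 458 exonic bases and Ifi35 overlaps the antisense gene Gm11626 over 290. The strand setting of the counting is not stated, so reads of such partners may not be told apart.

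In hyperplasia, the PKA library held more interferon response RNA. The 37 members summed to 3866 CPM in PKA against 2939 in WT, a log2 ratio of 0.40 (0.37 to 0.42). Past 1.5-fold, 7 of 37 members were higher (9.93% of 16671 measured genes) and 0 were lower (10.1% of genes). Counting intervals lay above 0 for 25 members (13.4% of genes) and below 0 for 0 (13.5% of genes). The median log2 ratio of the members was 0.28, against 0.01 over all measured genes.

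In tumors the difference was in the same direction. The members summed to 4225 CPM in PKA against 2753 in WT, a log2 ratio of 0.62 (0.60 to 0.63). Past 1.5-fold, 20 of 37 members were higher (18.3% of 20146 measured genes) and 1 was lower (15.2% of genes). Counting error left intervals above 0 for 32 members (21.6% of genes) and below 0 for Ifi35 alone (28.0% of genes). The median was 0.62, against -0.01 over all measured genes. With every class weighted equally the median was 0.46, against 0.06 over all genes, and 12 members were then past 1.5-fold higher. The share of all genes under that weighting is not given. At both stages 22 members had intervals above 0, as did 3.90% of 16327 genes measured at both. Ifi35 was the 1 member with intervals on opposite sides, as 8.77% of those genes had. Past 1.5-fold at both stages were Isg15, Ifit3, Ifit3b, Irf7, Herc6 and Irgm1. Irgm1, a GTPase gene, had only 71 UMIs in all 4 libraries and intervals that held 0.

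**Figure D1:**
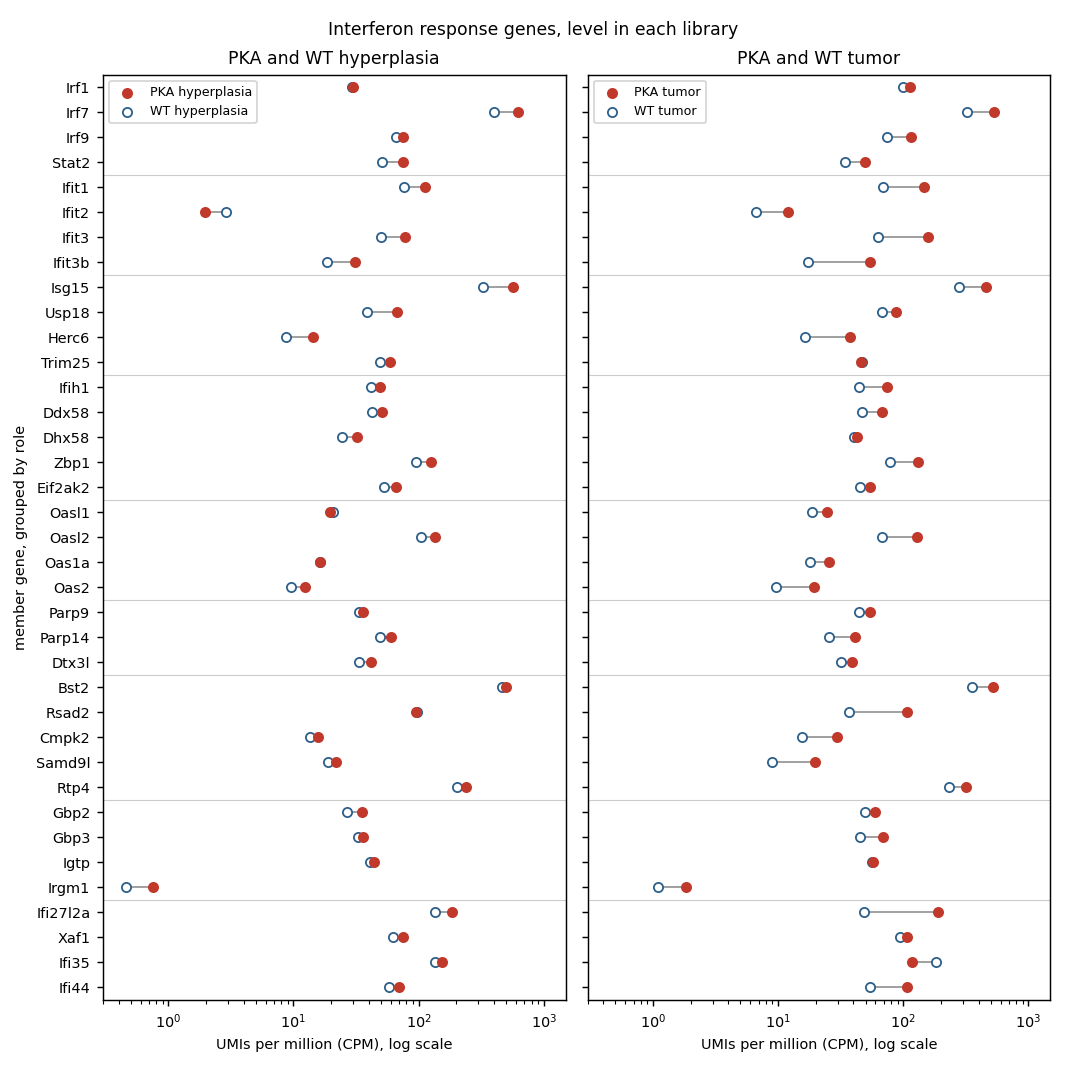
CPM of each of the 37 members on a log axis, with filled points for PKA and open points for WT, hyperplasia in the left panel and tumor in the right, and horizontal lines between roles; each point is 1 library. In the tumor panel the filled point lies right of the open one for 35 members, and left of it for Ifi35 and Trim25; in the hyperplasia panel it lies right for 34.

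Among the transcription factors, Irf7, the factor that amplifies type I interferon production, stood at 629 CPM in PKA against 404 in WT hyperplasia (log2 ratio 0.64, 0.58 to 0.69), and at 534 CPM in PKA against 326 in WT tumor (0.71, 0.67 to 0.76). Stat2, the signal carrier of type I interferon, stood at 75.4 CPM in PKA against 50.9 in WT hyperplasia (0.57, 0.41 to 0.73), and at 49.9 CPM in PKA against 34.1 in WT tumor (0.55, 0.41 to 0.69). Over all cells both genes thus had ratios of nearly the same size at the stages. Within Luminal Progenitor 1 cells, described further on, the ratio of Irf7 was 0.68 in hyperplasia and 0.20 in tumors, and that of Stat2 0.60 in hyperplasia and 0.50 in tumors. Irf9, the DNA-binding partner of Stat2, had a ratio of 0.20 in hyperplasia, at 75.8 CPM in PKA against 66.1 in WT, and a larger one of 0.62 in tumors, at 115 CPM in PKA against 74.7 in WT. Over all cells Irf1, a factor that interferon gamma induces strongly, was nearest to equal in this role. It stood at 30.0 CPM in PKA against 29.4 in WT hyperplasia (0.03, -0.20 to 0.26), and at 113 CPM in PKA against 100.1 in WT tumor (0.18, 0.09 to 0.26). Within Luminal Progenitor 1 cells of tumors Irf1 stood at 111 CPM in PKA against 89.4 in WT. There Irf7, at 573 CPM in PKA against 499.5 in WT, was nearer to equal.

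The IFIT proteins, which bind foreign RNA, had the largest summed ratio of any role in tumors, at 369.7 CPM in PKA against 156 in WT (log2 ratio 1.24, 1.19 to 1.302). In hyperplasia their sum was 225 CPM in PKA against 148 in WT (0.60, 0.51 to 0.69). The lower WT level was seen at both stages for 3 of the 4 genes. Ifit3 stood at 78.1 CPM in PKA against 50.01 in WT hyperplasia (0.64, 0.49 to 0.80), and at 156 CPM in PKA against 62.9 in WT tumor (1.31, 1.22 to 1.40). Ifit1 stood at 114 CPM in PKA against 76.7 in WT hyperplasia (0.57, 0.44 to 0.70), and at 148 CPM in PKA against 69.1 in WT tumor (1.10, 1.01 to 1.19). Ifit3b, the near copy of Ifit3, stood at 31.0 CPM in PKA against 18.7 in WT hyperplasia (0.73, 0.47 to 0.99), and at 53.8 CPM in PKA against 17.4 in WT tumor (1.63, 1.46 to 1.80). Ifit2 was the exception and was sparse in hyperplasia. It had 21 UMIs in PKA and 31 UMIs in WT hyperplasia (-0.53, -1.41 to 0.30), and 200 UMIs in PKA and 164 UMIs in WT tumor (0.83, 0.53 to 1.14), of which 1 cell of the PKA tumor held 31. With every class weighted equally its tumor ratio turned to -0.147. In EMT-like cells of tumors it had 4 UMIs in PKA and 29 UMIs in WT (-1.54, -3.65 to -0.17).

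Genes of ISG15 conjugation were led in hyperplasia by Isg15 itself, a ubiquitin-like protein that is attached to other proteins. It stood at 572 CPM in PKA against 330.3 in WT hyperplasia (0.79, 0.73 to 0.85), the highest ratio of any member at that stage, and at 462 CPM in PKA against 280.1 in WT tumor (0.72, 0.68 to 0.77). Usp18, the protease that removes Isg15 and also restrains the interferon receptor, stood at 67.2 CPM in PKA against 38.9 in WT hyperplasia (0.79, 0.61 to 0.97), and at 88.3 CPM in PKA against 67.3 in WT tumor (0.39, 0.29 to 0.49). Over all cells the tumor ratio of Usp18 was the smaller one, while within Luminal Progenitor 1 cells it was 0.83 in hyperplasia and 0.82 in tumors. Herc6, the main ligase for Isg15 in mice, stood at 14.5 CPM in PKA against 8.80 in WT hyperplasia (0.71, 0.34 to 1.10), and at 37.3 CPM in PKA against 16.3 in WT tumor (1.195, 1.01 to 1.38). Trim25, a ubiquitin ligase that activates the sensor encoded by Ddx58, differed in hyperplasia, at 59.6 CPM in PKA against 49.0 in WT (0.28, 0.12 to 0.45). In tumors its interval held 0, at 46.2 CPM in PKA against 47.1 in WT (-0.03, -0.16 to 0.11).

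The nucleic acid sensors had intervals above 0 for 5 of 5 genes in hyperplasia and 4 of 5 in tumors, with 0 past 1.5-fold in hyperplasia and 2 in tumors. Of all measured genes, 13.4% had an interval above 0 in hyperplasia and 21.6% in tumors, and 9.93% were past 1.5-fold higher in hyperplasia and 18.3% in tumors. The stages were not tested against each other, for this role or for those that follow. Zbp1, which senses left-handed nucleic acids, stood at 125 CPM in PKA against 94.7 in WT hyperplasia (0.40, 0.28 to 0.52), and at 131 CPM in PKA against 77.8 in WT tumor (0.75, 0.66 to 0.84). Ifih1, which encodes a sensor of long double-stranded RNA, stood at 49.4 CPM in PKA against 41.8 in WT hyperplasia (0.24, 0.06 to 0.43), and at 73.8 CPM in PKA against 44.5 in WT tumor (0.73, 0.61 to 0.85). These were the sensors past 1.5-fold in tumors. Ddx58, which encodes RIG-I, a sensor of viral RNA ends, stood at 51.0 CPM in PKA against 42.6 in WT hyperplasia (0.26, 0.08 to 0.44), and at 68.0 CPM in PKA against 46.6 in WT tumor (0.55, 0.43 to 0.67). Eif2ak2, the kinase that halts translation on double-stranded RNA, stood at 65.7 CPM in PKA against 53.2 in WT hyperplasia (0.31, 0.15 to 0.47), and at 53.9 CPM in PKA against 45.5 in WT tumor (0.25, 0.12 to 0.37). Dhx58, which modulates the signals of Ifih1 and Ddx58, had an interval above 0 in hyperplasia. It stood at 32.2 CPM in PKA against 24.5 in WT hyperplasia (0.40, 0.16 to 0.64), and at 42.5 CPM in PKA against 40.3 in WT tumor (0.08, -0.06 to 0.22), where the interval held 0.

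The oligoadenylate synthetase family, whose enzymes make the activator of the nuclease RNase L, had 1 of 4 intervals above 0 in hyperplasia and 4 of 4 in tumors, against 13.4% of all genes in hyperplasia and 21.6% in tumors. Oasl2, an antiviral homolog, was the 1 in hyperplasia, at 136 CPM in PKA against 104 in WT (0.38, 0.27 to 0.50), and stood at 129 CPM in PKA against 68.0 in WT tumor (0.92, 0.83 to 1.02). Oas2 stood at 12.3 CPM in PKA against 9.54 in WT hyperplasia (0.37, -0.02 to 0.75), and at 19.4 CPM in PKA against 9.63 in WT tumor (1.01, 0.76 to 1.26). Both were past 1.5-fold in tumors. Oas1a was level in hyperplasia, with 175 UMIs in PKA and 176 UMIs in WT, and stood at 25.5 CPM in PKA against 17.9 in WT tumor (0.51, 0.32 to 0.71). Oasl1, which in mice holds back translation of Irf7, stood at 19.7 CPM in PKA against 20.6 in WT hyperplasia (-0.06, -0.34 to 0.22), and at 24.4 CPM in PKA against 18.7 in WT tumor (0.38, 0.19 to 0.58).

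The genes of ADP-ribosylation, Parp9, its partner Dtx3l and the transferase Parp14, summed in hyperplasia to 138 CPM in PKA against 116 in WT (0.25, 0.14 to 0.36). Dtx3l (0.31, 0.11 to 0.52) and Parp14 (0.30, 0.13 to 0.465) had intervals above 0 there, while that of Parp9 held 0 (0.10, -0.11 to 0.31). In tumors Parp14 stood at 41.4 CPM in PKA against 25.6 in WT (0.70, 0.54 to 0.86), and was the 1 of the 3 past 1.5-fold. Parp9 (0.29, 0.16 to 0.42) and Dtx3l (0.29, 0.14 to 0.44), which overlap in the genome, had the same tumor ratio.

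Other effectors lay close together in hyperplasia and further apart in tumors. Bst2, which tethers budding virus to the membrane, stood at 499.5 CPM in PKA against 467 in WT hyperplasia (0.10, 0.04 to 0.15), and at 523 CPM in PKA against 357 in WT tumor (0.55, 0.51 to 0.60). Rsad2, which encodes the antiviral enzyme viperin, stood at 94.8 CPM in PKA against 97.8 in WT hyperplasia (-0.05, -0.17 to 0.08), and at 107 CPM in PKA against 37.1 in WT tumor (1.52, 1.41 to 1.64). Rsad2 UMIs were concentrated in few cells: 1 cell of the PKA tumor held 225 of 1789, or 12.6%, and 1 cell of the WT hyperplasia library 157 of 1056, or 14.9%. Without the first cell the tumor ratio was 1.33, 1.21 to 1.45, and without the second the hyperplasia ratio was 0.19, 0.06 to 0.32, an interval above 0; both cells were singled out after their values were seen. Cmpk2, a nucleotide kinase gene 12751 bases from Rsad2 on chromosome 12, on the other strand, stood at 15.6 CPM in PKA against 13.5 in WT hyperplasia (0.21, -0.12 to 0.54), and at 29.7 CPM in PKA against 15.6 in WT tumor (0.93, 0.73 to 1.12). Samd9l, an antiviral restriction factor, stood at 21.9 CPM in PKA against 18.8 in WT hyperplasia (0.22, -0.06 to 0.50), and at 19.6 CPM in PKA against 8.94 in WT tumor (1.13, 0.88 to 1.38). With all cells in, Rsad2, Cmpk2 and Samd9l thus had hyperplasia intervals that held 0 and tumor ratios past 1.5-fold. Rtp4, a receptor chaperone that interferon induces, had an interval above 0 at both stages. It stood at 241 CPM in PKA against 202 in WT hyperplasia (0.26, 0.17 to 0.34), and at 319.5 CPM in PKA against 233 in WT tumor (0.46, 0.40 to 0.51).

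Among the GTPases, which act on membranes around pathogens, Gbp3 stood at 35.8 CPM in PKA against 32.9 in WT hyperplasia (0.12, -0.09 to 0.34), and at 68.9 CPM in PKA against 44.7 in WT tumor (0.62, 0.50 to 0.74). Gbp2 stood at 35.1 CPM in PKA against 26.7 in WT hyperplasia (0.40, 0.17 to 0.62), and at 59.8 CPM in PKA against 49.3 in WT tumor (0.28, 0.16 to 0.40). Igtp had intervals that held 0 at both stages, at 44.3 CPM in PKA against 40.7 in WT hyperplasia and at 57.5 CPM in PKA against 55.9 in WT tumor.

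The 4 remaining members went both ways in tumors. Ifi27l2a, which encodes a small membrane protein, had the highest tumor ratio of all members. It stood at 186 CPM in PKA against 134 in WT hyperplasia (0.47, 0.37 to 0.57), and at 191 CPM in PKA against 48.7 in WT tumor (1.97, 1.87 to 2.07), so that the WT tumor was low and the other 3 libraries were higher. Ifi44 stood at 70.0 CPM in PKA against 57.9 in WT hyperplasia (0.27, 0.12 to 0.43), and at 106 CPM in PKA against 54.5 in WT tumor (0.96, 0.86 to 1.07). Xaf1, a gene linked to cell death, stood at 75.04 CPM in PKA against 63.1 in WT hyperplasia (0.25, 0.10 to 0.40), and at 107 CPM in PKA against 93.6 in WT tumor (0.19, 0.10 to 0.28). Ifi35, which encodes a leucine zipper protein, alone was lower in the PKA tumor. It stood at 154 CPM in PKA against 135 in WT hyperplasia (0.18, 0.08 to 0.29), and at 117 CPM in PKA against 182 in WT tumor (-0.64, -0.72 to -0.56).

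The cell classes of the authors' annotation differed in level. In hyperplasia the members summed to 4277 CPM in PKA against 3154 in WT Luminal Progenitor 1 cells, the most frequent class, and to 3459 CPM in PKA against 2567 in WT Luminal Progenitor 2 cells. They were lower in Basal cells, at 1941 CPM in PKA against 1999 in WT, and lowest in Mature Luminal cells, at 1523 CPM in PKA against 1622 in WT. In tumors they summed to 5027 CPM in PKA against 3903 in WT EMT-like cells, to 4419 CPM in PKA against 3427 in WT Luminal Progenitor 1 cells and to 1888 CPM in PKA against 1812 in WT Mature Luminal cells. Lumino-Basal cells stood at 3719.8 CPM in PKA against 1961 in WT, but the PKA value came from 66 cells. The progenitor classes and the EMT-like class were thus high and the Mature Luminal class low in every library.

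Class names were checked against markers in hyperplasia, and in tumors for the EMT-like class. Basal, Mature Luminal and Luminal Progenitor markers stood highest in hyperplasia in the classes named for them. The EMT-like class carried its own 4 markers at a sum of 366 CPM in the PKA tumor and 255 CPM in the WT tumor, against 819 CPM in PKA and 709 CPM in WT Luminal Progenitor 1 cells, but these sums were mostly Sox4. Sox4 stood at 339.7 CPM in PKA against 245 in WT EMT-like cells, and at 789 CPM in PKA against 686 in WT Luminal Progenitor 1 cells. Vim stood at 25.8 CPM in PKA against 10.6 in WT EMT-like cells, and at 29.6 CPM in PKA against 21.7 in WT Luminal Progenitor 1 cells. Trim29 and Cldn6 had 0 UMIs in EMT-like cells of both tumors, and 8 and 4 UMIs in PKA and 18 and 4 in WT Luminal Progenitor 1 cells. None of the 4 was thus higher in the EMT-like class than in Luminal Progenitor 1, and on these few markers the data go against that name. It is called EMT-like here only as the authors' label.

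**Figure D2:**
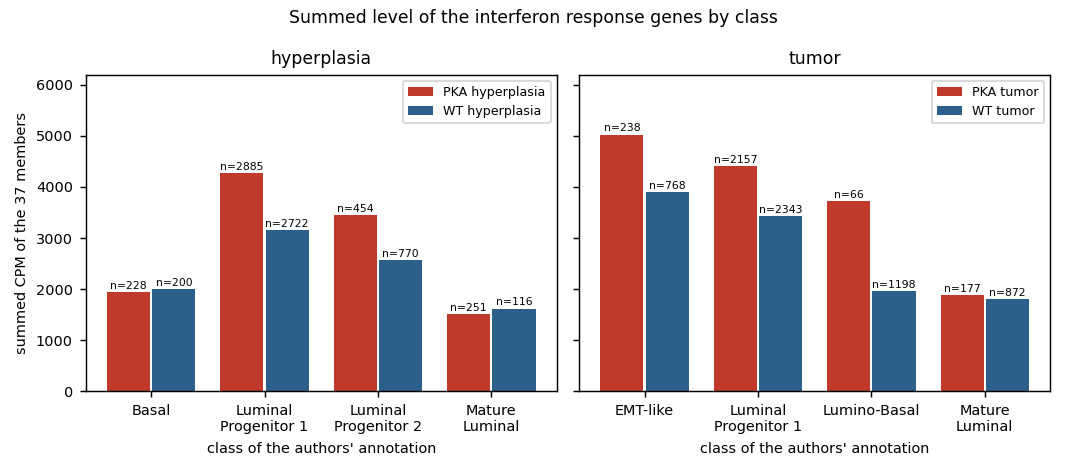
Bars give the summed CPM of the 37 members in each class of the authors' annotation, PKA beside WT, with the number of cells above each bar; each bar is 1 library and has no error bar. PKA bars exceed WT bars in both Luminal Progenitor classes, in EMT-like and in Lumino-Basal cells, while Basal and Mature Luminal bars lie between 1523 and 1999 CPM.

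Within Luminal Progenitor 1 cells of hyperplasia, 8 of 37 members were past 1.5-fold higher (9.52% of 15040 genes) and 0 lower (10.6% of genes), with a median of 0.32 against -0.01 over all genes. Beyond counting error, intervals were above 0 for 25 (12.5% of genes) and below 0 for 0 (14.2% of genes). Isg15 stood there at 678 CPM in PKA against 379.6 in WT (0.84, 0.77 to 0.90), Irf7 at 757 CPM in PKA against 474 in WT (0.68, 0.62 to 0.74) and Usp18 at 71.4 CPM in PKA against 40.2 in WT (0.83, 0.63 to 1.03). Bst2 at 554 CPM in PKA against 517 in WT (0.10, 0.04 to 0.16), Rsad2 at 83.8 CPM in PKA against 82.3 in WT (0.03, -0.13 to 0.19) and Irf1 at 25.8 CPM in PKA against 25.6 in WT (0.01, -0.27 to 0.30) lay close together. The genes that led over all cells thus also led in this class.

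In Luminal Progenitor 2 cells of hyperplasia, 9 of 36 measured members were past 1.5-fold higher (10.9% of genes) and 1 lower (10.2% of genes), with a median of 0.43. An interval above 0 was found for 17 (6.96% of genes) and below 0 for 0 (6.42% of genes). Rsad2 was higher in this class than in any other hyperplasia class, at 245 CPM in PKA against 184 in WT (0.42, 0.20 to 0.63). The WT cell with 157 Rsad2 UMIs belonged to this class, and without it Rsad2 stood at 245 CPM in PKA against 111 in WT (1.14, 0.90 to 1.39). Ifit1 stood at 139 CPM in PKA against 70.4 in WT (0.98, 0.66 to 1.301). Neither Basal nor Mature Luminal cells showed a summed difference beyond counting error. In Basal cells 4 of 28 measured members were past 1.5-fold higher (14.1% of genes) and 5 lower (15.9% of genes), with a summed log2 ratio of -0.04 (-0.18 to 0.09). Intervals above 0 were found for 3 (4.74% of genes) and below 0 for 3 (6.04% of genes). Ifi27l2a was lower there, at 127 CPM in PKA against 256 in WT (-1.01, -1.49 to -0.55). The WT Basal class also held leukocyte markers: their sum was 7.80 CPM in PKA, with 16 of 19 at 0, and 433 CPM in WT, with 10 of 19 at 0. Fibroblast markers summed to 801 CPM in PKA and 1582 CPM in WT Basal cells. The part of these markers in the result was not tested. In Mature Luminal cells 7 of 27 were past 1.5-fold higher (16.3% of genes) and 2 lower (19.8% of genes), with a summed log2 ratio of -0.09 (-0.23 to 0.05). The interval was above 0 for 1 (6.56% of genes) and below 0 for 0 (9.22% of genes).

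Within Luminal Progenitor 1 cells of the tumors, 13 of 37 members were past 1.5-fold higher (19.4% of 18056 genes) and Ifi35 was lower (12.1% of genes), with a median of 0.45 against 0.02 over all genes. Intervals lay above 0 for 26 (20.0% of genes) and below 0 for 3 (23.2% of genes). The summed log2 ratio was 0.37 (0.35 to 0.39), smaller than the 0.62 over all cells. This class gave 82.5% of UMIs in the PKA tumor and 42.8% in the WT tumor, and Mature Luminal cells, where members were low, gave 8.55% in PKA and 19.9% in WT. Lumino-Basal cells, where members summed to 1961 CPM in WT, were 66 of 2638 cells in the PKA tumor and 1198 of 5181 in the WT tumor. EMT-like cells, where members were high, were 238 cells in the PKA tumor and 768 in the WT tumor. The part of the class mix in the ratio over all cells was not tested. Irf7, at 573 CPM in PKA against 499.5 in WT, had a ratio of 0.20 within the class, and Isg15, at 499.5 CPM in PKA against 394 in WT, one of 0.34. Ifi27l2a still had a large ratio, at 195 CPM in PKA against 83.3 in WT (1.23, 1.12 to 1.34), as did Rsad2, at 118 CPM in PKA against 60.03 in WT (0.97, 0.84 to 1.11), and Ifit3, at 167 CPM in PKA against 102 in WT (0.72, 0.61 to 0.83). Usp18 differed more within the class than over all cells, at 81.8 CPM in PKA against 46.4 in WT (0.82, 0.66 to 0.98). Its level was higher and nearly equal in Mature Luminal cells, at 127 CPM in PKA against 124 in WT. Dhx58, at 43.6 CPM in PKA against 53.7 in WT (-0.30, -0.47 to -0.13), and Igtp, at 61.6 CPM in PKA against 72.8 in WT (-0.24, -0.38 to -0.10), were lower in the PKA class.

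**Figure D3:**
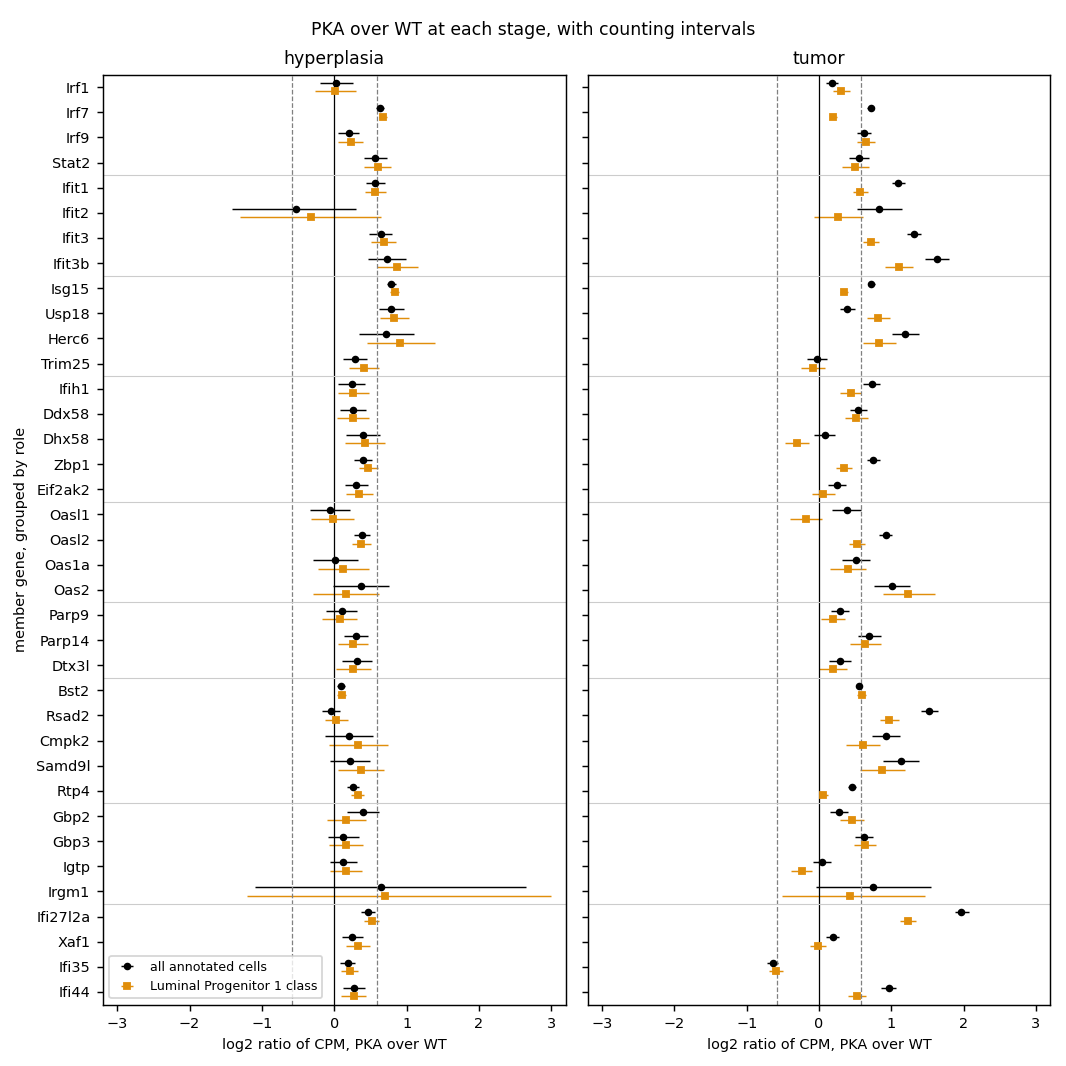
Log2 ratio of CPM, PKA over WT, for each member at each stage, with 95% counting intervals as bars; black circles are all annotated cells, orange squares the Luminal Progenitor 1 class, and dashed lines mark 1.5-fold. Circles and squares nearly coincide in hyperplasia, while in tumors the squares of Irf7 (0.20), Isg15 (0.34), Rsad2 (0.97) and Ifi27l2a (1.23) lie left of their circles (0.71, 0.72, 1.52 and 1.97).

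In EMT-like cells of the tumors 11 of 36 measured members were past 1.5-fold higher (21.1% of genes) and 2 lower (15.4% of genes). Counting error left intervals above 0 for 13 (14.0% of genes) and below 0 for 4 (12.4% of genes). In Lumino-Basal cells 23 of 35 were higher (28.6% of genes) and 1 lower (26.0% of genes). Intervals there lay above 0 for 17 (11.9% of genes) and below 0 for 1 (12.2% of genes). In Mature Luminal cells 5 of 35 were higher (24.5% of genes) and 3 lower (11.4% of genes). Beyond counting error, intervals were above 0 for 9 (17.8% of genes) and below 0 for 4 (12.0% of genes). Ifi27l2a was higher in PKA in each of the 4 tumor classes. It stood at 368 CPM in PKA against 87.9 in WT EMT-like cells (2.07, 1.82 to 2.31), at 112 CPM in PKA against 12.6 in WT Lumino-Basal cells (3.17, 2.61 to 3.69) and at 37.7 CPM in PKA against 4.30 in WT Mature Luminal cells (3.11, 2.38 to 3.93). Ifi35 was lower in PKA in each, with a ratio of -0.53 in EMT-like cells at the near end and -1.03 in Mature Luminal cells at the far end. Isg15 went both ways: it stood at 439 CPM in PKA against 157 in WT Lumino-Basal cells (1.49, 1.25 to 1.72), but at 109.6 CPM in PKA against 135 in WT Mature Luminal cells (-0.30, -0.56 to -0.05). Bst2 likewise stood at 766 CPM in PKA against 447 in WT EMT-like cells (0.78, 0.65 to 0.91), but at 233 CPM in PKA against 309 in WT Mature Luminal cells (-0.41, -0.58 to -0.24). Leukocyte markers in Lumino-Basal cells summed to 2.44 CPM in PKA, with 18 of 19 at 0, and to 40.1 CPM in WT, with 8 of 19 at 0. Fibroblast markers summed to 723 CPM in PKA and 113 CPM in WT Lumino-Basal cells, and to 30.0 CPM in PKA and 901 CPM in WT Mature Luminal cells; their part in the class values was not tested. Without the cells that held a leukocyte marker UMI, the tumor median over all cells was 0.65.

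Tumors were also set against hyperplasia within Luminal Progenitor 1 cells of each genotype, where far more of all genes were past 1.5-fold higher than lower in tumors. In the PKA libraries 13 of 37 members were past 1.5-fold higher in the tumor (42.1% of 17557 genes) and 1 lower (17.9% of genes), with a median of 0.41 against 0.36 over all genes. An interval above 0 was found for 22 (43.1% of genes) and below 0 for 9 (23.0% of genes). In the WT libraries 11 of 37 were higher (40.5% of 16605 genes) and 3 lower (19.5% of genes), with a median of 0.29 against 0.32 over all genes. Intervals above 0 were found for 21 (42.1% of genes) and below 0 for 7 (23.1% of genes). The members' medians lay near those of all genes. With TMM factors the all-gene medians were 0.12 in PKA and 0.09 in WT, and 9 members were higher and 5 lower in the PKA tumor, against 7 and 6 in the WT tumor. Shares of all genes are not given for these TMM counts. Irf1 had a large difference in both genotypes, at 111 CPM in PKA tumor against 25.8 in PKA hyperplasia (2.10, 1.89 to 2.32), and at 89.4 CPM in WT tumor against 25.6 in WT hyperplasia (1.80, 1.58 to 2.03). Herc6 stood at 37.5 CPM in PKA tumor against 14.2 in PKA hyperplasia (1.40, 1.11 to 1.71), and at 21.1 CPM in WT tumor against 7.51 in WT hyperplasia (1.48, 1.07 to 1.93). Stat2 was lower in both tumors, at 48.4 CPM in PKA tumor against 74.7 in PKA hyperplasia (-0.63, -0.79 to -0.47), and at 34.1 CPM in WT tumor against 49.3 in WT hyperplasia (-0.53, -0.74 to -0.32). In CPM, Rsad2 and Ifi35 went opposite ways in the genotypes. Rsad2 stood at 118 CPM in PKA tumor against 83.8 in PKA hyperplasia (0.49, 0.36 to 0.62), and at 60.03 CPM in WT tumor against 82.3 in WT hyperplasia (-0.46, -0.62 to -0.29). Ifi35 stood at 117 CPM in PKA tumor against 168 in PKA hyperplasia (-0.53, -0.63 to -0.42), and at 176 CPM in WT tumor against 145 in WT hyperplasia (0.28, 0.17 to 0.38). The WT value of Ifi35 lay near the all-gene median, and the PKA value of Rsad2 was not far from that of its genotype. The PKA tumor cell with 225 Rsad2 UMIs belonged to this class, and without it Rsad2 stood there at 102 CPM. Whether the genotypes differed in these changes with stage was not tested.

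Member UMIs were counted in single Luminal Progenitor 1 cells after each cell was thinned to 2000 UMIs, which left 2110 of 2885 cells in PKA hyperplasia, 2090 of 2722 in WT hyperplasia, 1999 of 2157 in PKA tumor and 2195 of 2343 in WT tumor. The mean per cell was 8.68 UMIs in PKA hyperplasia (SD 8.96 over cells) and 6.44 in WT hyperplasia (SD 7.70). In tumors it was 8.65 in PKA (SD 9.82) and 6.84 in WT (SD 8.80). The median was 6 UMIs in both PKA libraries and 4 in both WT libraries. The difference lay at both ends of the range of cells. In hyperplasia 3.18% of PKA and 6.70% of WT cells had no member UMI, and 8.67% of PKA and 5.74% of WT cells had 20 or more. In tumors 3.90% of PKA and 6.20% of WT cells had none, and 9.36% of PKA and 5.65% of WT cells had 20 or more. The 10% of cells with most member UMIs held 33.5% of them in PKA and 37.9% in WT hyperplasia, and 35.4% in PKA and 37.8% in WT tumor.

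**Figure D4:**
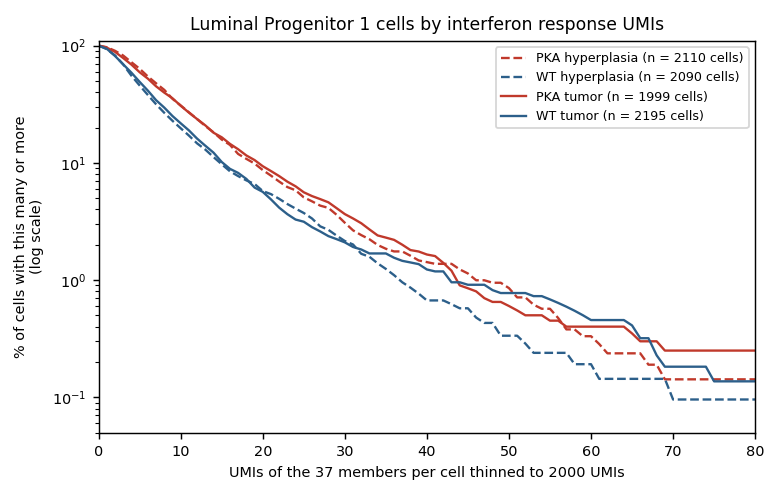
Percent of Luminal Progenitor 1 cells (log axis) that held a given number of member UMIs or more, after thinning each cell to 2000 UMIs; red lines are PKA, blue lines WT, dashed lines hyperplasia and solid lines tumor. At 20 UMIs the PKA lines stand at 8.67% (hyperplasia) and 9.36% (tumor), above the WT lines at 5.74% and 5.65%.

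Members varied together from cell to cell. In thinned Luminal Progenitor 1 cells the variance of the summed member UMIs was 3.59 in PKA against 4.00 in WT hyperplasia, and 4.94 in PKA against 4.75 in WT tumor, in multiples of the sum of the single members' variances, a figure that is 1 for genes with no covariance. In Mature Luminal cells the figure was 1.59 in PKA against 1.70 in WT hyperplasia, and 2.23 in PKA against 2.5 in WT tumor. Those cells also held fewer member UMIs, with means per thinned cell of 3.05 in PKA and 3.16 in WT hyperplasia. In tumors these means were 3.645 in PKA and 3.685 in WT. The part of the lower counts in the figure was not tested. In Luminal Progenitor 1 cells, members with at least 100 thinned UMIs also varied more than most genes of that count. Their median ratio of variance to mean was 1.32 over 32 members in the PKA tumor, against 1.04 over 5532 genes. It was 1.33 over 31 members in the WT tumor, against 1.03 over 5915 genes. Across the cells of a library, which share free RNA and processing, Ifit3 and Rsad2 had the highest mean correlation among the pairs measured in all 4 libraries, at 0.46 in PKA against 0.58 in WT hyperplasia, and 0.60 in PKA against 0.58 in WT tumor. Most pairs were weakly related, with a median of 0.11 over 496 pairs in the PKA tumor and 0.11 over 465 pairs in the WT tumor.

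The share of thinned cells of all classes with at least 1 UMI of a member had a median over the 37 genes of 9.29% in PKA and 6.48% in WT hyperplasia, and of 10.7% in PKA and 8.42% in WT tumor. Without thinning, at unlike depths, these medians were 11.8% in PKA and 8.61% in WT hyperplasia, and 25.6% in PKA and 16.0% in WT tumor. Irf7 had a UMI in 53.3% (51.1 to 55.5) of thinned Luminal Progenitor 1 cells of the PKA tumor and in 49.98% (47.9 to 52.1) of those of the WT tumor. Rsad2 had one in 9.31% (8.07 to 10.7) of PKA and 4.42% (3.598 to 5.37) of WT tumor cells of that class. No class of these libraries is known to lack the members, so the share that free RNA gives could not be read from the cells.

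Few UMIs of interferon genes were found. Of the 10 ligand genes sought, only Ifnb1 and Ifne were among the genes listed for these libraries, and both had UMIs in the annotated cells. The others had no counts listed. Neither a missing gene nor a count of 0 shows that a gene was off, here or in cells that were not captured. Ifne, an interferon of epithelia, had 12 UMIs in 8 cells of PKA hyperplasia and 2 UMIs in 2 cells of WT hyperplasia, and 0 UMIs in PKA tumor and 2 in WT tumor. Ifnb1, which encodes interferon beta, had 0 UMIs in PKA hyperplasia and 1 in WT hyperplasia, and 0 in PKA tumor and 40 in WT tumor. All 40 came from 1 Luminal Progenitor 1 cell with 4273 UMIs, 18 of them of the epithelial gene Epcam, and 0 UMIs of leukocyte markers. That cell held 192 member UMIs, or 44933 CPM, against a median of 2208 in its class, and ranked 3 among 2343 cells. Ifit1 gave 72 of them, Isg15 34, Ifit3 27 and Ifit3b 23, while Irf7 gave 2. The cell was singled out after its values were seen; without it the tumor median was 0.63.

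Upstream signalling genes were counted against the shares of all genes, which were 13.4% with an interval above 0 and 13.5% below in hyperplasia, and 21.6% above and 28.0% below in tumors. The stages were not tested against each other. Of 6 receptor genes, 0 had an interval above 0 and 2 one below 0 in hyperplasia, while 4 lay above and 1 below in tumors. Ifnar1 was level at both, at 22.7 CPM in PKA against 23.1 in WT hyperplasia and at 22.9 CPM in PKA against 23.3 in WT tumor. Its partner Ifnar2 stood at 25.4 CPM in PKA against 27.8 in WT hyperplasia (-0.13, -0.37 to 0.11), and at 26.6 CPM in PKA against 15.3 in WT tumor (0.80, 0.60 to 1.0). Ifngr2, of the interferon gamma receptor, was lower in PKA at both stages. It stood at 48.6 CPM in PKA against 85.9 in WT hyperplasia (-0.82, -0.98 to -0.67), and at 88.0 CPM in PKA against 105 in WT tumor (-0.25, -0.35 to -0.16). Ifngr1, the other chain of that receptor, went opposite ways. It was lower in PKA hyperplasia, at 82.9 CPM against 113 in WT (-0.44, -0.57 to -0.32). In tumors it was higher in PKA, at 66.1 CPM against 45.0 in WT (0.56, 0.43 to 0.68). Of 3 kinases 1 lay above 0 and 0 below in hyperplasia, and 1 above and 1 below in tumors. Of 10 adaptors and upstream factors, 2 lay above and 0 below in hyperplasia, and 4 above and 3 below in tumors. Of 7 measured brakes on the response 1 lay above and 2 below in hyperplasia, and 2 above and 0 below in tumors.

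Genes outside the 37 that interferons also induce were counted from a list of 49. In hyperplasia 13 of 42 measured genes had intervals above 0 (13.4% of all genes) and 4 below (13.5%), with a median of 0.11. In tumors 28 of 45 lay above 0 (21.6% of all genes) and 6 below (28.0%), with a median of 0.44. Ddx60, an RNA helicase gene, was higher in PKA at both stages, at 10.6 CPM in PKA against 7.41 in WT hyperplasia (0.52, 0.09 to 0.95), and at 38.1 CPM in PKA against 16.5 in WT tumor (1.21, 1.03 to 1.39). Some went opposite ways. Ifi203, of a family that binds DNA, stood at 2.16 CPM in PKA against 22.1 in WT hyperplasia (-3.33, -4.04 to -2.74), and at 25.8 CPM in PKA against 5.55 in WT tumor (2.21, 1.93 to 2.504). The chemokine gene Cxcl10 had 34 UMIs in PKA and 87 UMIs in WT hyperplasia (-1.32, -1.95 to -0.75), and 93 UMIs in PKA and 43 UMIs in WT tumor (1.65, 1.12 to 2.22). Of the 6 below 0 in tumors, Ccl5 had 34 UMIs in PKA and 289 UMIs in WT tumor (-2.52, -3.10 to -2.02). In hyperplasia its interval held 0 (-0.04, -0.28 to 0.21).

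Genes of class I antigen presentation, which interferons also induce, were mostly lower in the PKA hyperplasia library. Of 10 genes, 0 had intervals above 0 (13.4% of all genes) and 7 below (13.5%), with a median of -0.37. B2m, the light chain of class I molecules, stood at 2996 CPM in PKA against 4551 in WT hyperplasia (-0.60, -0.62 to -0.58), and at 5485 CPM in PKA against 2494 in WT tumor (1.14, 1.12 to 1.15). Nlrc5, the transactivator of the class I genes, stood at 11.4 CPM in PKA against 14.5 in WT hyperplasia (-0.35, -0.71 to -0.004), and at 8.95 CPM in PKA against 2.57 in WT tumor (1.79, 1.37 to 2.25). Both were thus lower in PKA hyperplasia and higher in the PKA tumor. In tumors 5 of the 10 lay above 0 (B2m, H2-K1, H2-D1, Tap1 and Nlrc5), against 21.6% of all genes, and 5 below (Tap2, Tapbp, Psmb8, Psmb9 and Psmb10), against 28.0% of all genes. Tap2, a subunit of the peptide transporter, stood at 116 CPM in PKA against 189 in WT tumor (-0.70, -0.78 to -0.63), while its partner Tap1 stood at 91.8 CPM in PKA against 69.7 in WT tumor (0.40, 0.30 to 0.50).

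**Figure D5:**
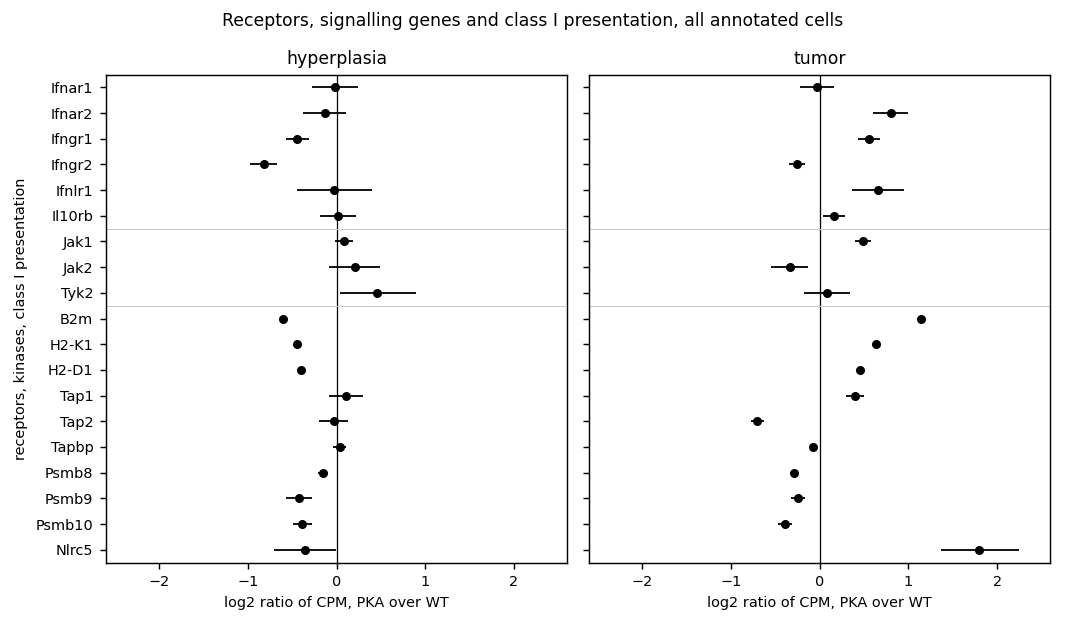
Log2 ratio of CPM over all annotated cells, PKA over WT, with 95% counting intervals as bars, for receptors, kinases and class I presentation genes (top to bottom, divided by lines). B2m, H2-K1 and H2-D1 lie left of 0 in hyperplasia and right of 0 in tumor.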

How the data were processed

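Single-cell libraries of PKA and WT hyperplasia and tumor (4 groups, 1 library each) were read from the deposited UMI counts per gene and barcode, raw per the file headers and values. Per the submitters' processing notes, Cell Ranger, STAR 2.5.3a and featureCounts of Subread 1.6.0 were used with GRCm38/mm10. The authors' deposited per-cell tables gave the classes and the fraction of mitochondrial UMIs. Barcodes without a class were used only in the alternative with all barcodes, and doublets were not called again. UMIs were summed per library and class and given as CPM. Log2 ratios added 0.5 UMI, and exact conditional binomial 95% intervals cover counting error only. A gene was measured with at least 10 UMIs in the pair, and a class with at least 50 cells. Thinning was to 2000 UMIs per cell. The intervals were tested only on simulated Poisson counts, the model that they assume. That test could not show how they fare where UMIs are concentrated in few cells. Python 3.11.15, numpy 2.4.6, pandas 2.3.3, scipy 1.17.1, matplotlib 3.10.9, R 4.3.3 and edgeR 4.0.16 (TMM factors only) were used. Members and lists were chosen with earlier results of these data known. Any member could be named; class values were planned for Isg15, Irf7, Bst2, Ifit3, Usp18, Ifi27l2a, Rsad2, Irf1 and the members with the 3 highest and 3 lowest ratios. Class values of Ifit1, Dhx58, Herc6 and Stat2, and the named genes outside the 37, were chosen after their values were seen. Alternatives were other scalings, cell filters, class weights, UMI minimums, added UMIs and folds. A gene of the planned lists is not reported here.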

Additional observations from a re-analysis of the deposited data

Results flagged for a closer look

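Ifi35 had log2 ratios of PKA over WT on opposite sides at the stages, 0.183 in hyperplasia and -0.641 in tumors. The difference between the stages was not tested, since each group was 1 library. Ifi35 overlaps the antisense gene Gm11626, and the strand setting of the counting is not stated.

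Barcodes that the authors left without a class, which only the alternative with all barcodes used, also held member RNA. Their summed member level was 3534.7 CPM in PKA and 2842.8 CPM in WT hyperplasia (1040 and 1371 barcodes), and 4205.2 CPM in PKA and 2107.9 CPM in WT tumor (296 and 619 barcodes). The PKA value was the higher one at both stages, as it was in the annotated cells.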

How the results depend on the processing

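No paired analysis was possible because each group was 1 library and the labels gave no shared replicate numbers. Of the 37 members' ratios under 9 alternatives each, 313 of 333 in hyperplasia and 291 of 333 in tumors stayed within their counting interval. The others left it only under equal class weights or the mean of each cell's CPM. Equal class weights moved 18 of 37 in hyperplasia and 23 of 37 in tumors, besides the 1 reversal below. The mean of each cell's CPM moved 2 of 37 in hyperplasia and 18 of 37 in tumors. Among ratios past 1.5-fold, only that of Ifit2 in tumors reversed its sign, to -0.147 with equal class weights. Sign changes of smaller ratios were not counted as reversals. Leaving out the 1 cell with most Rsad2 UMIs, an alternative chosen after seeing the data, gave Rsad2 ratios of 0.186 in hyperplasia and 1.33 in tumors over all cells, 1.141 in Luminal Progenitor 2 of hyperplasia and 0.761 in Luminal Progenitor 1 of tumors. At 2-fold in place of 1.5-fold, 0 members were higher in hyperplasia over all cells and 0 within Luminal Progenitor 1, and in tumors 8 were higher and 0 lower over all cells, and 3 higher and 0 lower within that class. At 2-fold between stages, 5 were higher and 0 lower in each genotype. With equal class weights 1 member was lower in hyperplasia, and in tumors 12 were higher with a median of 0.457, against 0.061 over all genes. With all barcodes 1 was lower in hyperplasia. Within Luminal Progenitor 1, the mean of each cell's CPM gave 1 lower in hyperplasia and 0 lower for the PKA tumor against PKA hyperplasia, and leaving out the 1% of cells with most UMIs gave 0 lower in tumors. TMM factors gave 7 higher and 6 lower for the WT tumor against WT hyperplasia, and 5 lower with a median of 0.177 for the PKA stages. The median share of cells with a UMI was 5.297% in PKA and 3.928% in WT hyperplasia and 5.838% in PKA and 4.497% in WT tumor when thinned to 1000 UMIs, and without thinning 11.79% in PKA and 8.613% in WT hyperplasia and 25.55% in PKA and 16.0% in WT tumor. Shares of all genes are not given for the member counts under these alternatives, so the counts cannot be set against genes at large. Beyond what each alternative changes by its construction, the cause was not tested. Depth limits Irgm1 at both stages and Ifit2 in hyperplasia.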
